A study of Mus musculus with 18 samples.

Results

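Transcript levels of 10 immediate early genes were followed through the colon crypt epithelium of mice that differed in genotype label and in exposure to gut microbes. The genes were chosen by symbol: the AP-1 subunits Fos, Fosb, Jun, Junb and Jund, the zinc finger transcription factor Egr1, the short-lived response genes Ier2 and Ier3, the phosphatase Dusp1 and the mRNA decay factor Zfp36. All 10 were found among the 24047 genes of the count table, of which 18217 had a read in at least 1 library, and all 10 passed the filter on low counts in each comparison. They were set apart for description because isolating crypts can itself raise them.

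The table held RNA-seq counts of 18 libraries in 6 groups of 3. C57BL/6 mice labelled WT or Ern2-/- were germ free (GF), germ free and then colonized for 14 days with cecal contents of conventional WT mice (COLONIZED), or conventionally raised with a specific pathogen free microbiota (CONV). Both genotypes had been rederived into sterile isolators for the GF groups, and the COLONIZED mice received a single gavage and were kept in sterile cages outside the isolator. Ern2 encodes IRE1β, an endoplasmic reticulum stress sensor of mucosal epithelium, and the Ern2-/- label stands for loss of both alleles. The ages of the mice were not given, and the labels do not say that each library came from a mouse of its own, so p-values measure the spread between libraries. In every group the crypts were taken from distal colon by 45 min in 10 mM EDTA at 4 °C, shaking for 5 min in each of 2 rounds, filtering through 100 µm and 40 µm strainers, and freezing. The time each sample spent in these steps was not given.

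Immediate early genes are transcribed within minutes of a stimulus, without new protein synthesis, when kinases such as ERK, JNK and p38 activate transcription factors already bound at their promoters. As a rule, though not equally for every member, their mRNAs and proteins are short-lived, so the signal falls again unless the stimulus lasts. In the intestine they respond to growth factors, microbial products and injury, and they are also well known to respond to the handling of tissue. Fos and Jun proteins pair to form AP-1, Dusp1 switches off the kinases that induce it, and Zfp36 binds AU-rich mRNAs and speeds their decay.

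Promoter sequence is shown for 3 of the 5 genes that fell on colonization of WT mice, those with the longest upstream stretch outside every annotated exon. That stretch was shorter for Fosb (177 bases, ending 73 bases before the RefSeq start) and 0 bases for Zfp36, so neither is shown. Capitals mark TGACG, the core of the cAMP response element (CRE) on the printed strand, TGACGTCA, its full palindrome, and TATAAA, the TATA box. The sequences are from RefSeq on GRCm38.p6, the reference behind mm10, and run 5′ to 3′ on the strand of the gene: chr12:85473640-85473889 (+) for Fos, chr8:84978749-84978998 (-) for Junb and chr17:26508520-26508722 (-) for Dusp1. The Fos and Junb sequences end at the base before the RefSeq start, and that of Dusp1 ends 47 bases before it, where a GENCODE transcript begins.
Fos: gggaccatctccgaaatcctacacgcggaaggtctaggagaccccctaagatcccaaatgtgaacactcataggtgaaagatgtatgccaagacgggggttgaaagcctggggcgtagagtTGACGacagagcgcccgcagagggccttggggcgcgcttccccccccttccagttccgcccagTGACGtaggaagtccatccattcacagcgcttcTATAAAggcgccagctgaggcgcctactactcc
Junb: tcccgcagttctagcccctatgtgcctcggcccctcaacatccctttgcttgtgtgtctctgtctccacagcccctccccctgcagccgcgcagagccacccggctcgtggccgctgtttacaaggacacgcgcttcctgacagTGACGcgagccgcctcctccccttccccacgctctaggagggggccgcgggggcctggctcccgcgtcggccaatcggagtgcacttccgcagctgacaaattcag
Dusp1: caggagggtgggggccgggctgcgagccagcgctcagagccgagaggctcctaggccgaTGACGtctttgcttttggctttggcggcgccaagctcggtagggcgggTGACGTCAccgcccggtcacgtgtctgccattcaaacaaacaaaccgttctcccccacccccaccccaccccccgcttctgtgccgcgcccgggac

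Sequence of the window from 250 bases before to 50 bases after the RefSeq start was at hand for 8 of the 10 genes, all but Egr1 and Ier2. It was searched on both strands. For Junb and Jund the GENCODE exons begin downstream of that start, at chr8:84978718 and chr8:70698949. In these 2 genes the end of the window was in no GENCODE transcript of the gene. The whole window of Jund lies before its GENCODE start. TGACG occurred in 4 of them (Fos, Fosb, Junb and Dusp1) and in 20.8% of all 32851 promoter windows. The full TGACGTCA, which contains TGACG, occurred in Dusp1 and in 1.79% of all windows. The CArG box, the element bound by serum response factor, occurred in Zfp36, 58 bases before the start, and in 1.63% of all windows. TATAAA was found in Fos, 33 bases before the start, and in Junb, at the RefSeq start itself (13.6% of all windows). In Junb it thus lies before the GENCODE start. The GC box GGGCGG was in 6 genes (35.7%), whereas the AP-1 element TGANTCA was in none of the 8 (7.81%). These are matches of letters in a short window and say nothing of which factors bind there.

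The genes lie on 6 chromosomes. In RefSeq coordinates on GRCm38.p6, Fos is at chr12:85473890-85477274, Jun at chr4:95049036-95052222, Junb at chr8:84976909-84978748 and Jund at chr8:70697739-70700616. Fosb is at chr7:19302696-19310118 and Zfp36 at chr7:28376784-28379228. Dusp1 is at chr17:26505591-26508472, Ier3 at chr17:35821713-35822911, Ier2 at chr8:84661331-84662852 and Egr1 at chr18:34861207-34864956.

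Before the genes are described, the libraries need a word. Totals ran from 5865619 to 23154481 counts, and 3 libraries had under 10000000: CONV-WT replicate 3 and CONV-Ern2-/- replicates 2 and 3. They are called the low-total libraries below. Normalized Ern2 counts were 1909 to 3100 in the WT libraries and 386 to 3336 in those labelled Ern2-/-, of which 3 of 9 were at or above the lowest WT library, so the genotype is named below as the label of the library. CONV-WT replicate 3 stood apart from its group, with 92802 summed normalized counts of 9 goblet cell markers against 623456 and 549338 in replicates 1 and 2. In the 3 CONV-Ern2-/- libraries this sum was 67799 to 86450. The 8 epithelial markers, among them Epcam and Cdh1, were abundant in all 18 libraries (146149 to 223781). Y-linked transcripts were present in 0 of 3 GF-WT, 2 of 3 COLONIZED-WT, 2 of 3 GF-Ern2-/-, 2 of 3 COLONIZED-Ern2-/-, 1 of 3 CONV-WT and 3 of 3 CONV-Ern2-/- libraries.

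All 10 genes were expressed in all libraries, at very different levels. Per kilobase of the union of their GENCODE exons, median levels over the 18 libraries were 2890 normalized counts for Jund and 1104 for Ier2. Junb (517), Fos (451), Jun (401) and Zfp36 (326) formed a middle group. Ier3 (87.6), Egr1 (76.1), Dusp1 (29.9) and Fosb (4.77) were the lowest. Fosb rested on 8 to 188 raw reads per library, so its values carry the most counting error, while Jund rested on 2829 to 11318.

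The genes differed as much in how widely their levels varied. Ier2, a nuclear response protein, was the steadiest, from 1234 to 1997 normalized counts, a 1.62-fold range over 18 libraries. Jund varied 2.28-fold, Jun 2.69-fold, Zfp36 3.20-fold, Junb 3.58-fold and Ier3 4.21-fold. Dusp1 varied 6.19-fold, Fos 7.68-fold, Egr1 12.3-fold and Fosb 16.5-fold. Much of this variation lay between libraries of the same group. The standard deviation within groups, on the scale of log2(normalized count + 1), was 0.94 for Fosb, 0.80 for Egr1 and 0.67 for both Dusp1 and Fos, against a median of 0.27 over 10852 genes with a mean of at least 50 counts. That placed Fosb at the 97.6th percentile of these genes, Egr1 at the 96.4th, Dusp1 at the 94.0th and Fos at the 93.9th, with Ier2 at the 22.0th. Differences between the 6 group means made up from 37.3% of the total sum of squares for Egr1 to 56.5% for Junb. With 6 groups of 3 libraries, scatter between libraries alone gives a sizeable share of this kind. The share over all genes was not taken.

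**Figure D1:**
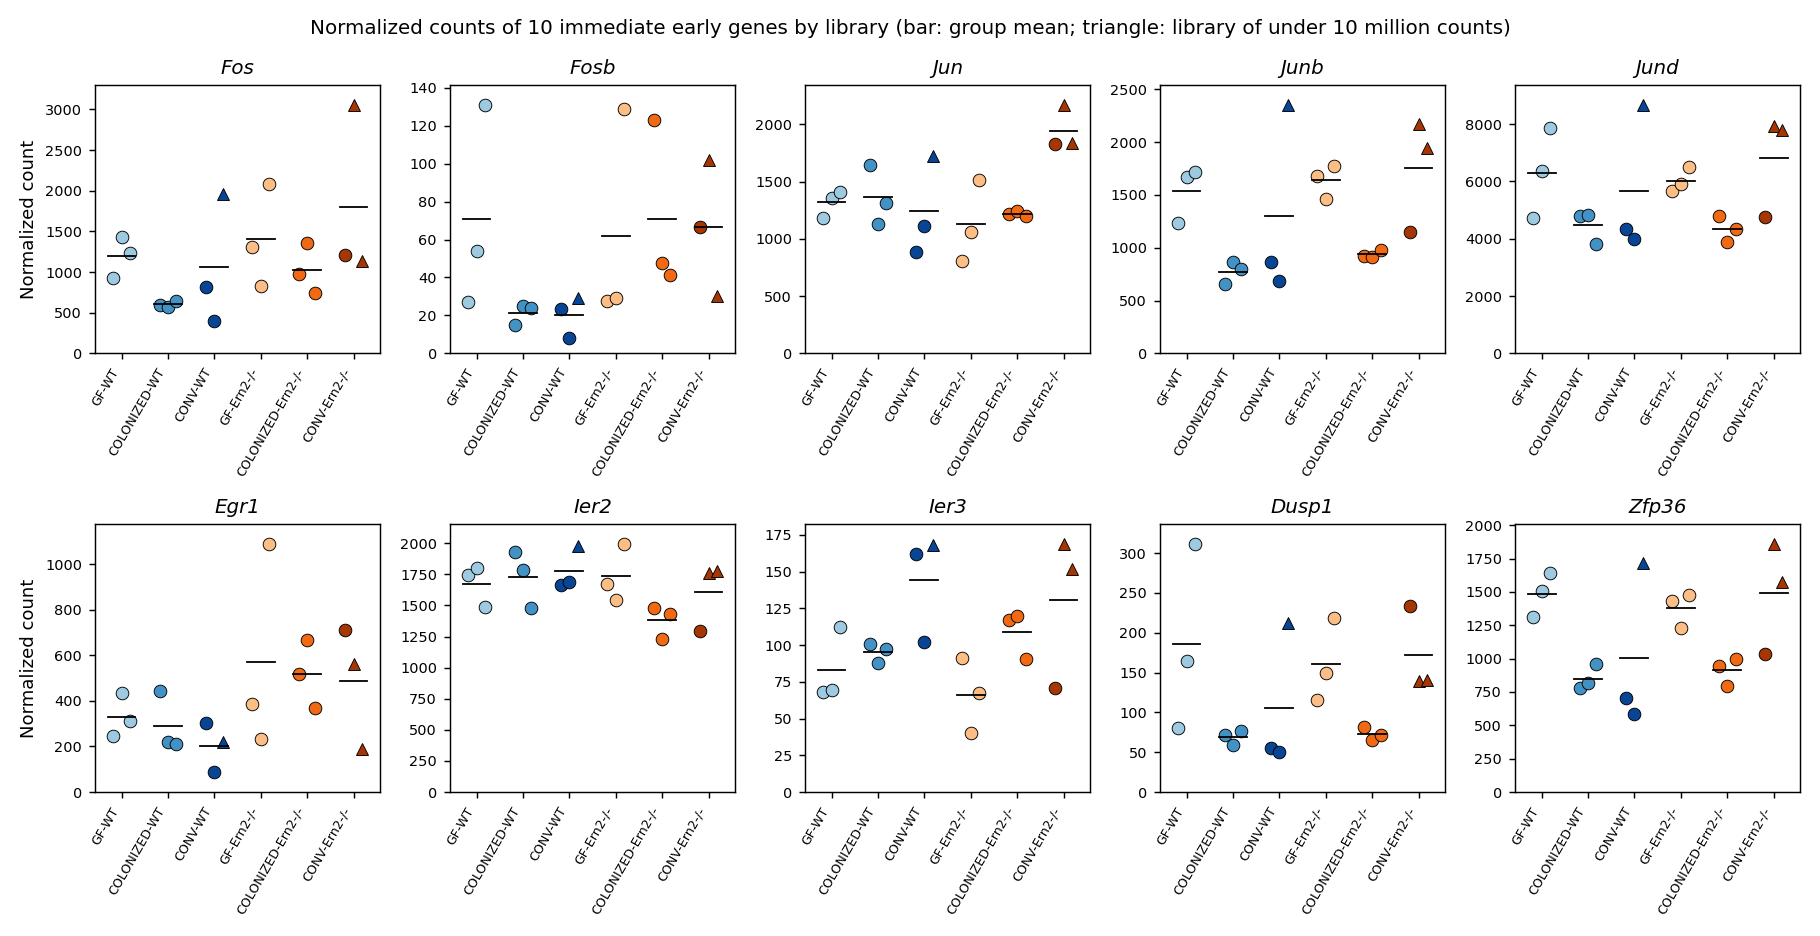
Each panel shows 1 gene, with normalized counts on a linear axis from 0, 1 point per library and a bar at each group mean. Triangles are the 3 low-total libraries. Fos, Junb, Dusp1 and Zfp36 lie lower in the 3 COLONIZED-WT libraries than in the 3 GF-WT libraries, and CONV-WT is spread widely by replicate 3.

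To summarize a library, the deviations of the 10 genes from their own means over 18 libraries were averaged on the log2 scale. The highest values belonged to CONV-Ern2-/- replicate 2 (0.77), GF-Ern2-/- replicate 3 (0.65), GF-WT replicate 3 (0.50) and CONV-WT replicate 3 (0.45). The lowest was CONV-WT replicate 2 (-0.90), followed by the 3 COLONIZED-WT libraries (-0.44 to -0.34) and CONV-WT replicate 1 (-0.36). COLONIZED-WT was the tightest group, with a spread of 0.10, and CONV-WT the widest, with 1.35. CONV-Ern2-/- was the only group with 3 positive values (0.22, 0.23 and 0.77), and COLONIZED-WT the only one with 3 negative values. In CONV-Ern2-/- replicate 2 all 10 genes were above their own mean, and in COLONIZED-WT replicate 3 none was.

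**Figure D2:**
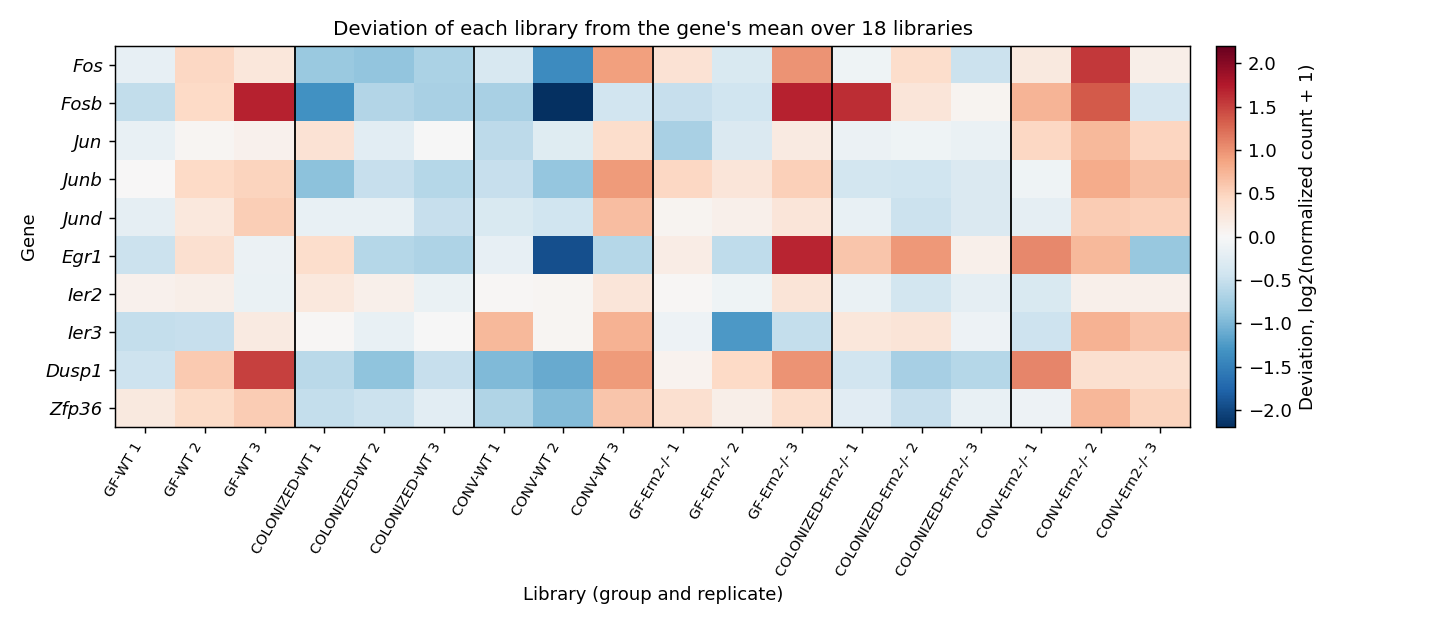
Rows are the 10 genes and columns the 18 libraries, and color gives the deviation of log2(normalized count + 1) from the gene's mean over all libraries, red for higher and blue for lower. Fosb and Egr1 carry the strongest colors, and the COLONIZED-WT columns are blue for Fos, Fosb, Junb, Dusp1 and Zfp36.

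The 3 low-total libraries ranked high for some of the genes. Junb had 2352, 2166 and 1945 normalized counts in them, above each of the other 15 libraries. For Jun, Jund, Ier3 and Zfp36 1 other library reached the lowest of the 3. For Egr1, by contrast, 14 of the other 15 libraries were above the lowest of the 3 (190). GF-Ern2-/- replicate 3 (13783712 counts) and GF-WT replicate 3 (23154481) had high mean deviations at larger totals. Whether a low total, or what led to it, has a part in these levels was not tested.

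**Figure D3:**
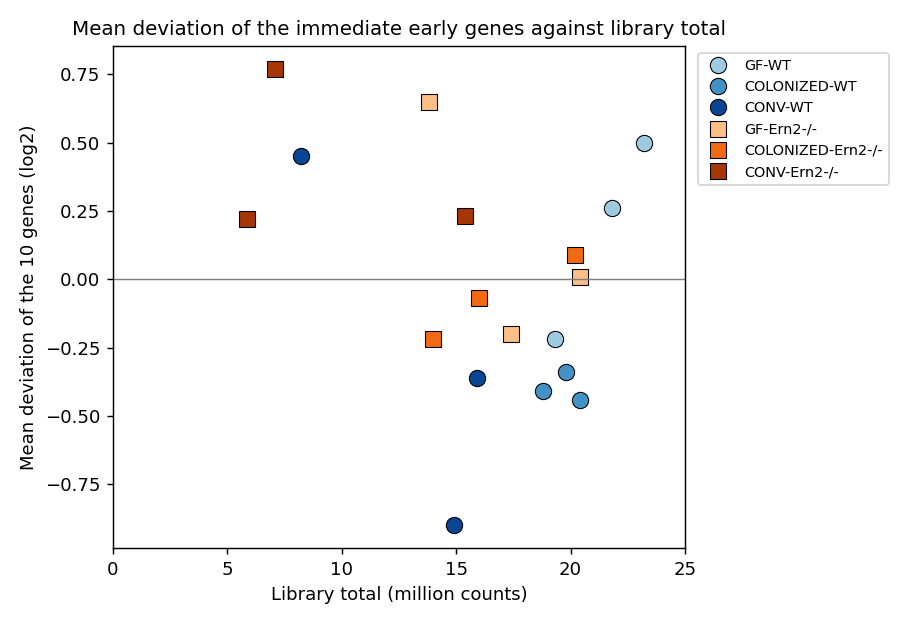
The mean deviation of the 10 genes (log2) is plotted against the library total, with 1 point per library, circles for WT and squares for Ern2-/-. The 3 libraries on the left lie between 0.22 and 0.77, and the others spread from -0.90 to 0.65.

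Over the 18 libraries, which share normalization and in part handling, the genes moved together to different degrees. Across their 45 pairs the median Pearson r was 0.39, with 17 pairs over 0.5 and 4 below 0, and with group means taken off it was 0.53. Junb and Zfp36 were the closest pair (r 0.95), followed by Junb and Jund (0.91). Fos was close to Junb (0.83), Zfp36 (0.80) and Fosb (0.71), and Fosb to Egr1 (0.73). The 4 pairs below 0 were Fosb with Ier2 (-0.21), Egr1 with Ier2 (-0.16) and with Ier3 (-0.10), and Ier3 with Dusp1 (-0.14), and Egr1 was also low with Junb (0.20) and Jund (0.09). With group means taken off none of these 4 was below 0, and Ier3 had r of 0.59 with Fos and 0.57 with Junb, as Ier2 had with Jund. Of 9990 other genes with a mean of at least 100 counts, those most like the mean deviation of the 10 were Atf3 (r 0.91), a stress-induced partner of AP-1, Specc1l (0.89), Diap1, Map4 and Trio (0.88 each). With group means taken off they were Wwc1 (0.94), Irf2bpl (0.92), Hbegf (0.91), a ligand of the EGF receptor, Trio and Plekha7 (0.90 each). These likenesses are descriptions over 18 libraries.

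The effect of colonization was examined first in WT mice. Fos had 923, 1437 and 1239 normalized counts in GF-WT and 593, 572 and 646 in COLONIZED-WT. Junb had 1231, 1667 and 1720 against 657, 865 and 795. Zfp36 had 1309, 1509 and 1642 against 777, 814 and 957. For these 3 genes every COLONIZED-WT library lay below every GF-WT library by a clear margin. Dusp1 had 79.9, 164 and 312 in GF-WT and 72.0, 58.8 and 77.0 in COLONIZED-WT. Fosb had 26.9, 53.9 and 131 in GF-WT and 15.0, 25.0 and 23.8 in COLONIZED-WT. For both of these the groups just failed to meet, with GF-WT replicate 1 close to the COLONIZED-WT libraries and GF-WT replicate 3 far above.

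In the DESeq2 Wald test over all genes, with a Benjamini-Hochberg adjusted p under 0.01 as the threshold, 5 of the 10 genes fell on colonization of WT mice and none rose. Of all 13635 genes tested in this comparison 18.3% were called, and 8.97% were called lower. Junb fell by 0.99 on the log2 scale (SE 0.18, adjusted p 2.63e-06), Fos fell by 0.98 (SE 0.19, adjusted p 4.30e-06) and Zfp36 fell by 0.80 (SE 0.15, adjusted p 5.72e-06). Fosb fell by 1.73 (SE 0.54, adjusted p 0.00766) and Dusp1 fell by 1.41 (SE 0.41, adjusted p 0.00422). The groups did not overlap, with COLONIZED-WT lower, for the same 5 genes, where 23.5% of all genes did so. The other 5 genes were not called: Jund (-0.48, adjusted p 0.0594), Egr1 (-0.17), Jun (0.06), Ier2 (0.06) and Ier3 (0.20). The median over the 10 genes was -0.64, against -0.01 over all genes tested. In bulk samples, fewer cells of a type and less RNA per cell cannot be told apart.

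These calls were not equally firm. Fos, Junb and Zfp36 passed in all 6 leave-one-out fits and by edgeR (adjusted p 0.00904, 0.00875 and 0.00791). Fosb and Dusp1 were called in 1 of the 6, that without GF-WT replicate 1, which called 2672 of 13204 genes, and without GF-WT replicate 3 their log2 fold changes were -0.92 (adjusted p 0.180) and -0.80 (adjusted p 0.0951). Fitted with all 18 libraries and so with a spread shared by every group, none of the 10 was called, with adjusted p of 0.0354 to 0.150 for the 5, while their log2 fold changes were as before (Fos -0.99, Fosb -1.73, Junb -0.99, Dusp1 -1.42 and Zfp36 -0.81). In that fit 1261 of 14036 genes were called in this comparison, and edgeR called 630 of 12761. With the presence of Y-linked counts as a covariate, a term that GF-WT could not inform, none was called either, with Fos at -1.06 (adjusted p 0.0135), Zfp36 at -0.86 (0.0135), Junb at -0.82 (0.0561), Dusp1 at -1.65 (0.143) and Fosb at -1.49 (0.365). That fit called 231 of 12005 genes. With the library total as a covariate, the values of Fosb and Dusp1 were -0.62 and -0.51 (adjusted p 0.438 and 0.386).

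Other transcripts moved with this comparison. The summed markers of the stem and proliferation list (10 genes, Lgr5 and Mki67 among them) were 14348 to 19914 in GF-WT and 23753 to 27753 in COLONIZED-WT. The tuft cell markers summed to 832 to 1079 in GF-WT and 1736 to 3137 in COLONIZED-WT. The 14 mesenchymal markers summed to 367 to 441 in GF-WT and 237 to 321 in COLONIZED-WT, with Lum at 0 in the latter and Col1a2, Lum and Mgp at 0 in the former. The 6 endothelial markers summed to 38.4 to 48.3 and 21.4 to 29.4, with Cdh5, Kdr and Emcn at 0 in COLONIZED-WT. The 14 measured immune markers summed to 174 to 317 in GF-WT and to 262, 2710 and 202 in COLONIZED-WT, with S100a8 and S100a9 at 0 in both groups. The part of these cells in the fall of the 5 genes was not tested.

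Related genes gave a mixed picture in the same comparison. Of 33 tested genes of a list of 38 other immediate early genes, 17 were called, 13 lower and 4 higher (median -0.46). Plk3 fell by 2.06 (101 ± 18.6 against 423 ± 145 normalized counts, mean ± SD, n = 3 in each group), and Csrnp1 fell by 1.79 (51.4 ± 10.6 against 178 ± 57.5). Gadd45g, a growth arrest gene, rose by 3.10 (257 ± 57.7 against 30.1 ± 11.1), and Nr4a2, an orphan nuclear receptor, rose by 2.38 (134 ± 42.5 against 26.1 ± 9.98). Of the feedback phosphatases and inhibitors 5 of 18 tested were called (1 higher, 4 lower), and of the upstream kinases and transcription factors 4 of 26 (all lower), beside the 18.3% called among all genes. Of 16 heat shock genes, which respond to protein damage, 6 were called higher and 1 lower.

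Colonization of mice labelled Ern2-/- gave fewer calls. Junb had 1679, 1464 and 1774 normalized counts in GF-Ern2-/- and 923, 909 and 981 in COLONIZED-Ern2-/-. Dusp1 had 116, 149 and 218 against 81.9, 65.7 and 71.2. In both genes all 3 COLONIZED libraries were below all 3 GF libraries. Junb fell by 0.81 (SE 0.16, adjusted p 4.17e-05) and Dusp1 fell by 1.14 (SE 0.32, adjusted p 0.00567), so that 2 of 10 genes were called, where 7.17% of all genes were called and 3.57% were called lower. Zfp36 had 1432, 1229 and 1474 against 944, 796 and 998, with a value of -0.60 that narrowly missed the threshold (SE 0.18, adjusted p 0.0136). Jund (-0.47, adjusted p 0.0408) and Ier2 (-0.33, adjusted p 0.259) also had groups that did not overlap, so that 5 of the 10 genes did so, with COLONIZED lower, against 16.7% of all genes. The median over the 10 genes was -0.39, against -0.02 over all genes.

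Fos and Fosb, which were called in WT, were not called here. Fos had 1308, 829 and 2078 in GF-Ern2-/- and 978, 1361 and 748 in COLONIZED-Ern2-/- (-0.45, SE 0.35, adjusted p 0.456), with overlapping groups. Fosb had 27.6, 29.1 and 129 against 123, 47.7 and 41.1 (0.20, SE 0.65, adjusted p 0.897). Egr1 had 385, 232 and 1090 against 520, 665 and 370 (-0.13, SE 0.48), and again the groups overlapped. GF-Ern2-/- replicate 3 was the highest of its group for all 3 genes. The difference between the responses of the 2 genotype labels was tested as an interaction over 12 libraries, and none of the 10 genes was called, with 1 at an unadjusted p under 0.05 (Fosb, 1.93, SE 0.94, adjusted p 0.863) and none by edgeR. In that test 0.0280% of all genes were called, and 1030 of 17884 were at an unadjusted p under 0.05 (947 of 13045 by edgeR).

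Junb was called in all 6 fits that left out 1 library, and Dusp1 in 2 of 6. Fitted with all 18 libraries, Junb was at -0.81 (adjusted p 0.109) and Dusp1 at -1.14 (adjusted p 0.111), where 1166 of 13689 genes were called. By edgeR they were at -0.80 (adjusted p 0.0208) and -1.14 (adjusted p 0.0576). It called none of the 10, with 4 at an unadjusted p under 0.05, as were 3277 of 12519 genes. Over all genes edgeR called 27 of 12519 in this comparison. As in WT, other markers moved with the comparison. Summed mesenchymal markers were 393 to 610 in GF-Ern2-/- and 244 to 335 in COLONIZED-Ern2-/-, where Pdgfra was at 0, and endothelial markers 44.8 to 66.2 and 21.1 to 24.9, with Kdr and Flt1 at 0 in the former and Cdh5 and Emcn in the latter. Stem and proliferation markers were 13220 to 19582 and 24441 to 30019, enteroendocrine markers 1206 to 1870 and 2580 to 7208, and tuft cell markers 823 to 1723 and 1809 to 3525. GF-Ern2-/- replicate 2 stood apart from its group in colonocyte markers (580453 against 92524 and 123043 in replicates 1 and 3). In COLONIZED-Ern2-/- these summed to 168722 to 264942. Without that replicate Junb, Dusp1 and Zfp36 were called, where 1340 of 12862 genes were. The part of these markers in the result was not tested. Of 34 tested other immediate early genes 3 were called, with Gadd45g higher (1.39) and Plk3 (-1.60) and Btg1 (-0.94) lower. Of the feedback genes 1 of 18 was called, Tnfaip3 (-1.04), an inhibitor of NF-κB signaling, and of the upstream genes 2 of 26, the receptor Erbb3 (-0.80) and the kinase Map2k1 (-0.65). Of 16 heat shock genes 3 were called, all higher, including Hsph1 (2.09) and Chordc1 (1.28).

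**Figure D4:**
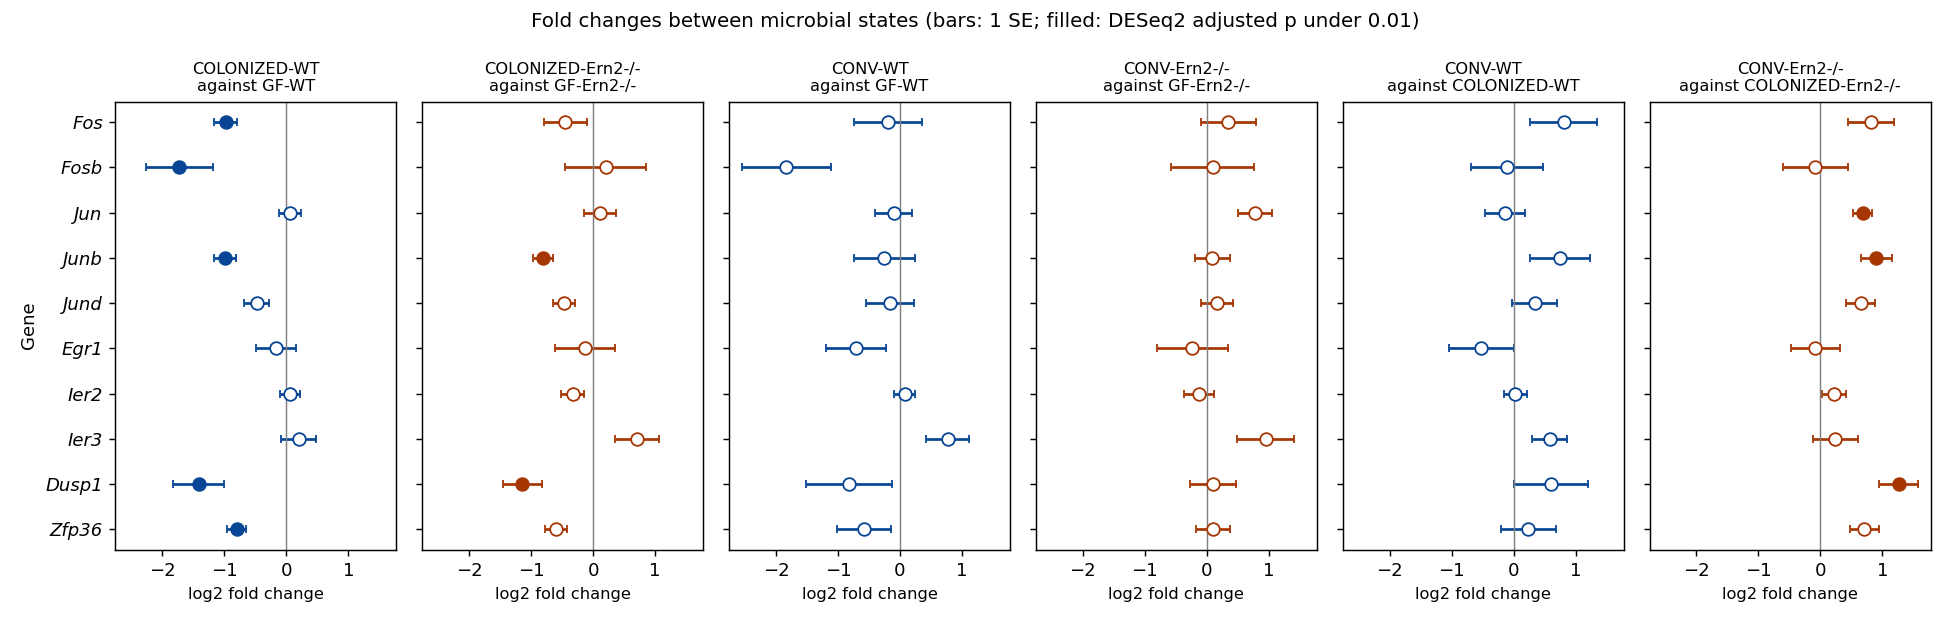
Each panel shows the log2 fold change of the 10 genes in 1 comparison between microbial states, with bars of 1 SE, blue for WT and brown for Ern2-/-, and filled points for a DESeq2 adjusted p under 0.01. In the first panel 5 points are filled, all left of 0, in the next 2, also left of 0, and in the last 3, right of 0.

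Conventional mice were compared with GF mice next, and none of the 10 genes was called in either genotype. In CONV-WT, Junb had 865, 680 and 2352 normalized counts, Zfp36 707, 583 and 1720, and Dusp1 55.6, 50.4 and 212. In each of these genes replicates 1 and 2 were below all GF-WT libraries while replicate 3 was within or above them. Fos had the same pattern (819, 398 and 1961). The log2 fold changes against GF-WT were -0.25 for Junb (SE 0.49), -0.58 for Zfp36 (SE 0.44), -0.82 for Dusp1 (SE 0.69) and -0.19 for Fos (SE 0.55), where 11.0% of all genes were called. Fosb had the lowest adjusted p (-1.83, SE 0.72, adjusted p 0.0546), and 2 of the 10 genes were at an unadjusted p under 0.05 by DESeq2, as 2 were by edgeR, which also called none. Over all genes 4216 of 13872 by DESeq2 and 3621 of 12603 by edgeR were under it. The groups overlapped for all 10 genes, where 36.2% of all genes had groups that did not.

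Replicate 3 decided this comparison. Without it Zfp36 fell by 1.21 (SE 0.19, adjusted p 3.44e-09), Junb fell by 1.00 (SE 0.22, adjusted p 8.92e-05) and Dusp1 fell by 1.81 (SE 0.53, adjusted p 0.00387), where 20.8% of all genes were called and 10.3% were called lower. Fos was at -0.98 (adjusted p 0.0149). The 2 CONV-WT libraries of that fit stood apart from GF-WT in goblet markers (623456 and 549338 against 208237 to 330043), stem and proliferation markers (30308 and 29468 against 14348 to 19914) and tuft cell markers (3238 and 3891 against 832 to 1079), which were higher. Their endothelial sums (19.8 and 26.7 against 38.4 to 48.3) and mesenchymal sums (262 and 250 against 367 to 441) were lower. The part of these cells in the values was not tested. Replicate 3 had the lowest total of its group (8198204 counts), the lowest goblet marker sum and the highest colonocyte marker sum (330601 against 79580 and 122726). It also had the highest mesenchymal sum (584 against 262 and 250) and endothelial sum (60.3 against 19.8 and 26.7). Ier3, which is linked to cell survival, had its highest group mean in CONV-WT, as Ier2 had, with 162, 102 and 168 counts against 68.4, 69.4 and 112 in GF-WT (0.77, SE 0.35, adjusted p 0.110). Related genes were counted in the fit of all 6 libraries, where 11.0% of all genes were called. Of 33 tested other immediate early genes 7 were called, 4 higher and 3 lower, with Gadd45g (4.15) and Nr4a2 (3.26) far above GF-WT. Of the feedback genes 3 of 18 were called (1 higher, 2 lower), with Zc3h12a, an RNase, at 2.17. Of the upstream genes 2 of 26 were called, the receptors Erbb3 (-1.56) and Erbb2 (-1.22), and of 16 heat shock genes 3, all higher.

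In mice labelled Ern2-/- the CONV and GF libraries overlapped for 9 of the 10 genes. The exception was Jun, with 1826, 2171 and 1835 normalized counts in CONV-Ern2-/- against 808, 1063 and 1513 in GF-Ern2-/- (0.78, SE 0.28, adjusted p 0.0668), where 4.34% of all genes were called and 11.6% had groups that did not overlap with CONV higher. Jun was called without GF-Ern2-/- replicate 3 (with 536 of 13261 genes) and with Y-linked counts as a covariate (with 526 of 13115 genes). With the library total as a covariate Jun was at 0.53 (adjusted p 0.897), where 108 of 13759 genes were called. Without CONV-Ern2-/- replicates 2 and 3, which leaves 1 in the group, it was at 0.69. Goblet markers summed to 67799 to 86450 in CONV-Ern2-/- and to 100214 to 239328 in GF-Ern2-/-. Tuft cell markers summed to 2531 to 3543 and 823 to 1723. Their part in the value of Jun was not tested. By DESeq2 2 of the 10 were at an unadjusted p under 0.05, and by edgeR 1, with none called. Over all genes these were 2627 of 13402 by DESeq2 and 2433 of 12318 by edgeR. None of 34 tested other immediate early genes was called, while the feedback genes Dusp10 (1.94) and Zc3h12a (1.40) and the heat shock genes Hsph1 (1.94), Hsp90aa1 (1.35) and Chordc1 (1.19) were called higher. The interaction of genotype label and microbes, CONV against GF, called none of the 10 (0.177% of all genes), with Jun nearest (0.87, SE 0.41, adjusted p 0.511). In it 1 was at an unadjusted p under 0.05 by each tool, where 1136 of 13027 genes were by DESeq2 and 957 of 12900 by edgeR. Without CONV-WT replicate 3 Zfp36 was called in it (1.31, SE 0.34, adjusted p 0.00707), where 2.23% of all genes were.

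Between CONV-WT and COLONIZED-WT none of the 10 genes was called, as few were among all genes (0.119%). Of all genes 1209 of 13458 by DESeq2 and 899 of 12650 by edgeR were at an unadjusted p under 0.05, and 1 of the 10 was by each tool. That gene was Ier3, whose 3 CONV-WT libraries (102 to 168) lay just above those of COLONIZED-WT (88.1 to 101), with a value of 0.58 (SE 0.28, adjusted p 0.493). It was the 1 gene of the 10 whose groups did not overlap with CONV higher, where 8.52% of all genes did so. With all libraries 7 of the 10 values were above 0 and 3 below, with a median of 0.29 against 0.01 over all genes. Fos was at 0.81 (SE 0.54), Junb at 0.75 (SE 0.49), Dusp1 at 0.60 (SE 0.60) and Zfp36 at 0.24 (SE 0.44). These values rested on CONV-WT replicate 3. Without it none was called either, and the values ran from -0.60 for Egr1 to 0.45 for Ier3. Jun was then at -0.46, Zfp36 at -0.41, Dusp1 at -0.40, Junb at -0.01 and Fos at -0.00.

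Between the groups labelled Ern2-/-, 3 of the 10 genes were called higher in CONV than in COLONIZED mice. Whether this differed from WT was not tested. In WT the same genes were at -0.14 (Jun, SE 0.32), 0.75 (Junb, SE 0.49) and 0.60 (Dusp1, SE 0.60). Jun had 1826, 2171 and 1835 normalized counts against 1214, 1240 and 1198, and rose by 0.68 (SE 0.15, adjusted p 3.75e-04). Junb had 1147, 2166 and 1945 against 923, 909 and 981, and rose by 0.90 (SE 0.25, adjusted p 0.00425). Dusp1 had 234, 140 and 141 against 81.9, 65.7 and 71.2, and rose by 1.26 (SE 0.31, adjusted p 0.00109). Of all genes 8.59% were called, and 4.86% were called higher. Zfp36 was at 0.71 (adjusted p 0.0284), Jund at 0.65 (adjusted p 0.0333) and Fos at 0.81 (adjusted p 0.119), and 4 of the 10 genes (Jun, Junb, Dusp1 and Zfp36) had groups that did not overlap with CONV higher, against 17.7% of all genes.

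The library totals differed along with these groups, since CONV-Ern2-/- replicates 2 and 3 had 7084267 and 5865619 counts and the COLONIZED-Ern2-/- libraries 14046576 to 20231830. Without these 2 libraries, which leaves 1 in the group, so that its spread is taken from the COLONIZED libraries, Dusp1 was called (1.69, adjusted p 8.91e-04), while Jun was at 0.60 (adjusted p 0.0961) and Junb at 0.30 (adjusted p 0.623), where 4.02% of all genes were called. With the library total as a covariate Dusp1 was called as well (1.73, adjusted p 1.61e-04), where 261 of 12779 genes were called. In that fit Jun was at 0.63 (adjusted p 0.0519) and Junb at 0.32 (adjusted p 0.602). By edgeR none of the 10 was called, with Jun at 0.68, Junb at 0.91 and Dusp1 at 1.26, where it called 35 of 12414 genes. It put 5 of the 10 at an unadjusted p under 0.05, and 3895 of all genes. The fit of all 18 libraries called 432 of 12995 genes here. In it Jun was at 0.68 (adjusted p 0.0567), Junb at 0.90 (adjusted p 0.0752) and Dusp1 at 1.24 (adjusted p 0.0874). Of the 6 fits that left out 1 library, Jun and Dusp1 were called in 3 each and Junb in 1. Leaving out COLONIZED-Ern2-/- replicate 3 left none of the 10 called, with 640 of 12957 genes called in all. Leaving out CONV-Ern2-/- replicate 1 gave 4 (Jun, Junb, Jund and Zfp36), where 2499 of 13604 genes were called. Endothelial markers summed to 118, 51.1 and 63.5 in CONV-Ern2-/- and to 21.1 to 24.9 in COLONIZED-Ern2-/-, with Cdh5 and Flt1 at 0 in the former and Cdh5 and Emcn in the latter, and goblet markers to 67799 to 86450 and 156847 to 304148. Colonocyte markers summed to 385768 to 625619 and 168722 to 264942, and stem and proliferation markers to 11536 to 20121 and 24441 to 30019. Enteroendocrine markers summed to 1855 to 2511 and 2580 to 7208, and the epithelial markers to 197315 to 213059 and 171997 to 192942. The part of these in the result was not tested.

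Among related genes in this comparison, 7 of 34 tested other immediate early genes were called, all higher in CONV-Ern2-/-, beside the 8.59% called and 4.86% called higher among all genes. Plk3 rose by 1.73 (414 ± 166 against 124 ± 17.7 normalized counts, mean ± SD, n = 3 in each group), Maff by 1.49, Atf3 by 1.41 (498 ± 241 against 187 ± 81.3) and Sgk1, a serum- and glucocorticoid-induced kinase, by 1.41 (4691 ± 530 against 1779 ± 895). Of the feedback phosphatases and inhibitors 2 of 18 were called, both higher, Dusp10 (1.50), a phosphatase of JNK and p38, and Nfkbia (0.88). Of the upstream kinases and transcription factors 2 of 26 were called, the kinases Map2k2 (0.81) and Mapk3 (0.78), both higher, of the AP-1 partners Maf (1.39) and Batf2 (0.98), both higher, and of 15 heat shock genes none.

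The genotype labels were compared within each microbial state. In CONV mice none of the 10 genes was called, where 3.03% of all genes were, although 8 of the 10 values were above 0 and the median was 0.61 against 0.02 over all genes. Fosb had 66.8, 102 and 30.4 normalized counts in CONV-Ern2-/- and 23.6, 7.90 and 29.2 in CONV-WT (1.75, SE 0.65, adjusted p 0.0940). Jun had 1826, 2171 and 1835 against 884, 1110 and 1726 (0.65, SE 0.31, adjusted p 0.239). These were the 2 genes whose groups did not overlap, with CONV-Ern2-/- higher, against 9.75% of all genes, and in both CONV-WT replicate 3 came next to the other group. Egr1 had 712, 562 and 190 against 302, 88.9 and 221 (1.27, SE 0.59, adjusted p 0.225). By DESeq2 3 of the 10 were at an unadjusted p under 0.05, and by edgeR 2, with none called. Over all genes these were 2186 of 12625 by DESeq2 and 1865 of 12128 by edgeR.

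Without CONV-WT replicate 3, 5 of the 10 genes were called between the labels in CONV mice, all higher in CONV-Ern2-/-, where 12.4% of all genes were called and 7.17% were called higher. Jun rose by 0.96 (SE 0.21, adjusted p 9.11e-05), Dusp1 by 1.71 (SE 0.38, adjusted p 1.38e-04) and Zfp36 by 1.20 (SE 0.30, adjusted p 7.13e-04). Junb rose by 1.18 (SE 0.32, adjusted p 0.00210) and Fos by 1.56 (SE 0.48, adjusted p 0.00932). Without all 3 low-total libraries, which leaves 1 CONV-Ern2-/- library that is assumed to vary like the 2 remaining CONV-WT libraries, 2 were called, Jun and Dusp1, with 11.2% of all genes. Leaving out any of the other 5 libraries gave no call. Against CONV-WT replicates 1 and 2, the CONV-Ern2-/- libraries also differed in summed colonocyte markers (385768 to 625619 against 79580 and 122726), stem and proliferation markers (11536 to 20121 against 30308 and 29468), endothelial markers (51.1 to 118 against 19.8 and 26.7), epithelial markers (197315 to 213059 against 171688 and 146749) and the goblet markers given above. The part of these in the 5 calls was not tested. Of the related genes, Gadd45g (-2.91) and Nr4a2 (-1.79), were called lower in CONV-Ern2-/- with all 6 libraries, and Batf2, an AP-1 partner, was called higher (1.41).

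In GF mice the labels did not differ for any of the 10 genes at an unadjusted p under 0.05, by DESeq2 or by edgeR, and all 10 had overlapping groups, where 6.10% of all genes had groups that did not overlap. Values ran from -0.32 for Ier3 (SE 0.40) to 0.79 for Egr1 (SE 0.50), where 0.0350% of all genes were called. Over all genes 254 of 17167 by DESeq2 and 194 of 12604 by edgeR were at an unadjusted p under 0.05. None of the related lists held a called gene. Normalized Ern2 counts were 2877, 386 and 3336 in the GF-Ern2-/- libraries and 2573, 1909 and 2439 in GF-WT. The comparison is therefore between labels and not between levels of Ern2 transcript.

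In COLONIZED mice none of the 10 genes was called between the labels, where 1.37% of all genes were. Fosb (41.1 to 123 in COLONIZED-Ern2-/- against 15.0 to 25.0 in COLONIZED-WT) and Fos (748 to 1361 against 572 to 646) came closest, with values of 1.74 (SE 0.46, adjusted p 0.0114) and 0.77 (SE 0.21, adjusted p 0.0154). Both had groups that did not overlap, as had Junb (909 to 981 against 657 to 865, with 0.27 and an adjusted p of 0.233), so that 3 of 10 did so with Ern2-/- higher against 16.4% of all genes. Egr1 was at 0.82 (SE 0.30, adjusted p 0.0762) and Ier2 at -0.33 (adjusted p 0.157). By DESeq2 4 of the 10 were at an unadjusted p under 0.05, and by edgeR 5, with none called. Over all genes these were 2664 of 11960 by DESeq2 and 2786 of 12722 by edgeR. Fos and Fosb were called without COLONIZED-Ern2-/- replicate 3, where 149 of 11534 genes were called, and Egr1 without COLONIZED-WT replicate 1, where 81 of 13136 were. With the library total as a covariate DESeq2 called Fosb (2.31, adjusted p 2.23e-04), where 66 of 14571 genes were called. In the DESeq2 fit of all 18 libraries Fosb was at 1.74 (adjusted p 0.253), where 24 of 13343 were called. Goblet markers summed to 304148, 156847 and 165437 in COLONIZED-Ern2-/- and to 325978, 367998 and 441628 in COLONIZED-WT, so that these did not overlap either, and their part in the values was not tested. Of the related genes Gadd45g (-1.83) and Myc (-0.63) were called lower, and Errfi1 (0.53), a feedback inhibitor of the EGF receptor, Atf5 (0.69) and Hspa4l (0.92) higher, in COLONIZED-Ern2-/-.

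Read across the 6 groups, the order of the means differed by gene, and most neighbors in the order overlapped. For Junb and Zfp36 the 2 lowest means were those of the COLONIZED groups (773 ± 106 and 938 ± 38.2 for Junb, 849 ± 95.0 and 913 ± 105 for Zfp36; mean ± SD, n = 3), as they were for Dusp1 (69.3 ± 9.43 and 72.9 ± 8.21), Fos (604 ± 38.1 and 1029 ± 310) and Jund (4484 ± 583 and 4350 ± 453). This order rested on CONV-WT replicate 3. Without it the CONV-WT mean was the lowest of the 6 groups for Zfp36 (645), Dusp1 (53.0) and Jund (4153), about level with COLONIZED-WT for Junb (772 against 773) and next to it for Fos (609 against 604). It was also the lowest of the 6 for Jun (997), Egr1 (195) and Fosb (15.7). With all libraries, Jun did not have the COLONIZED groups lowest. Its highest group, CONV-Ern2-/- (1944 ± 196), did not overlap the next, COLONIZED-WT (1362 ± 260), while the other 5 groups overlapped in sequence. For Fos and Junb COLONIZED-WT was lowest and did not overlap the next group, COLONIZED-Ern2-/-. For Fosb the means fell into 4 groups of 62.0 to 70.7 and 2 of 20.2 and 21.3, CONV-WT and COLONIZED-WT. For Ier2 the lowest mean, COLONIZED-Ern2-/- (1384 ± 132), and the highest, CONV-WT (1779 ± 175), differed by a smaller ratio than for any other of the 10 genes.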

How the data were processed

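RNA-seq was made from distal colon crypt epithelium with a stranded mRNA kit and 75-cycle single-end sequencing on a NextSeq500. The deposited values are counts per gene, which the authors made with STAR on mm10, per the labels. The STAR version, gene annotation and strandedness option behind the counts are not given in the sources used here. The 18 columns were matched to samples by their labels.

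DESeq2 1.42.0 (2-sided Wald test with its default settings and no shrinkage) was run on these counts for 9 comparisons, each using only the 6 libraries concerned, and for 2 interactions using 12, with a Benjamini-Hochberg adjusted p under 0.01 over all genes tested. Printed normalized counts were divided by DESeq2 size factors over 18 libraries. edgeR 4.0.16 (quasi-likelihood) and R 4.3.3 were used for alternatives, along with TMM factors, no independent filtering, 1 fit of all 18 libraries, the replicate number as a block, the library total as a covariate and leaving out each library. Fits with Y-linked counts as a covariate, and without libraries of under 10000000 counts, and group means without CONV-WT replicate 3, were added after seeing the data. The fits were tested on simulated data. Deviations used log2(normalized count + 1). The members and lists were chosen with earlier results of these data known. All 10 genes were named, and of the related lists up to 5 called genes per comparison with the largest change and a mean of at least 50 counts, of which some were left out for space. Called list genes outside that rule (Btg1, Tnfaip3, Erbb3, Map2k1, Erbb2, Nfkbia, Map2k2, Mapk3, Maf and Batf2) were named after their values were seen, to complete small counts. Some list genes are not reported here. Library totals were 5865619 to 23154481 counts.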

Additional observations from a re-analysis of the deposited data

How the results depend on the processing

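The number of the 10 genes called was 0 in 1 fit of all 18 libraries for each of the 3 comparisons with calls, COLONIZED-WT against GF-WT, COLONIZED-Ern2-/- against GF-Ern2-/- and CONV-Ern2-/- against COLONIZED-Ern2-/-. With edgeR it was 3, 0 and 0 in these. With Y-linked counts as a covariate it was 0 for COLONIZED-WT against GF-WT (with 231 of 12005 genes called) and for CONV-Ern2-/- against COLONIZED-Ern2-/- (623 of 13100), and 1 for CONV-Ern2-/- against GF-Ern2-/- (526 of 13115). Adjusted for the library total, it was 3 for COLONIZED-WT against GF-WT (with 1307 of 12987 genes called) and 2 for CONV-WT against GF-WT (1049 of 13232). It was 1 for CONV-WT against COLONIZED-WT (where 748 of 12176 genes were called, against 16 of 13458 without the covariate). It was also 1 for COLONIZED-Ern2-/- against COLONIZED-WT (66 of 14571) and for CONV-Ern2-/- against COLONIZED-Ern2-/- (261 of 12779). Without the low-total libraries it was 2 for CONV-Ern2-/- against CONV-WT, 3 for CONV-WT against GF-WT and 1 for CONV-Ern2-/- against COLONIZED-Ern2-/-. Leaving out 1 library at a time, it ran from 3 to 6 for COLONIZED-WT against GF-WT, from 1 to 3 for COLONIZED-Ern2-/- against GF-Ern2-/-, from 0 to 4 for CONV-Ern2-/- against COLONIZED-Ern2-/-, from 0 to 5 for CONV-Ern2-/- against CONV-WT, from 0 to 3 for CONV-WT against GF-WT, from 0 to 2 for COLONIZED-Ern2-/- against COLONIZED-WT, from 0 to 1 for CONV-Ern2-/- against GF-Ern2-/-, and from 0 to 1 for the interaction in CONV and GF mice. The number of all genes called moved in the same fits, in these comparisons in turn from 1276 to 2672, from 449 to 1340, from 414 to 2499, from 126 to 1669, from 592 to 2868, from 81 to 656, from 251 to 948 and from 3 to 289. The cause was not tested. TMM factors and no independent filtering kept each count within 1.5 times, and the called fold changes kept their direction in all alternatives run.

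Replicate numbers are shared by the groups, but in 0 of 9 comparisons did the deviations of all 3 same-numbered pairs correlate above 0.1 (r from -0.32 to 0.63, with every library closest to its own number in 2 comparisons), so they were not treated as pairs. With the replicate number as a block, 4 of the 10 genes were called in COLONIZED-WT against GF-WT, 1 (Junb) in COLONIZED-Ern2-/- against GF-Ern2-/-, 3 in CONV-Ern2-/- against COLONIZED-Ern2-/- and none elsewhere. Over all genes, these 3 fits in turn called 2272 of 13969, 959 of 13320 and 939 of 12779. Fosb, with as few as 8 reads in a library, is the gene whose level is least precise.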
